A study of Mus musculus with 9 samples.

Results

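Ccl3, Ccl4, Ccl5 and Xcl1 are 4 chemokine genes of effector T cells, and they are the 4 rows of the deposited count table, out of 48663 genes, that are described here. They were followed across 3 groups of 3 RNA sequencing libraries each, all from spleen T cells that recognise a viral peptide, taken from mice at day 30 of infection with LCMV Arm, the Armstrong strain of lymphocytic choriomeningitis virus, which causes an acute infection. CD4 control cells bound the GP66:I-Ab tetramer, a class II MHC reagent loaded with a viral peptide, and came from Ox40-Cre- mice. CD4 ThpokAD cells bound the same tetramer and came from Ox40-Cre+ Thpokfl/fl mice. CD8 control cells bound the GP33:H-2Db tetramer, its class I counterpart, and came from Ox40-Cre- mice. Thpok, encoded by Zbtb7b, is the transcription factor that sets the CD4 helper lineage, and Ox40 (Tnfrsf4) is a receptor of activated T cells whose locus drives the Cre. Cre was carried by the ThpokAD mice and not by the controls, so the effects of Cre itself cannot be told apart from those of Thpok loss. Between CD8 control and CD4 control cells, lineage, peptide, tetramer class and sort differ together. Between CD4 ThpokAD and CD8 control cells, these differ together with Cre and Thpok loss. The labels give no age, sex or strain of the mice and do not say that replicates were separate animals, so the p-values measure the spread between these libraries, which may be technical.

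Chemokines are small secreted proteins that direct the movement of leukocytes through G protein-coupled receptors. Ccl3, Ccl4 and Ccl5 (MIP-1α, MIP-1β and RANTES) are CC chemokines, named for adjacent cysteines near the start of the mature protein. Ccl3 and Ccl5 act on the receptor Ccr1, among others. Xcl1 (lymphotactin) is a C chemokine that lacks one of those cysteines and acts on Xcr1, a receptor of cross-presenting dendritic cells. Activated CD8 T cells and NK cells are well-known sources of all 4, memory CD8 T cells keep Ccl5 mRNA at a high level, and Ccl3, Ccl4 and Xcl1 are made soon after stimulation.

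The stretch of coding sequence around the family's first cysteines shows how the members differ. Each sequence below was read 5′ to 3′ from the GENCODE M21 transcript on the GRCm38 (mm10) build, with the cysteine codons in capitals.
Ccl3: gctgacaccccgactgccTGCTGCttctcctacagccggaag
Ccl4: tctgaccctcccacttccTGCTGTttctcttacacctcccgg
Ccl5: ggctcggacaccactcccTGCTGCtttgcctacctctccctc
Xcl1: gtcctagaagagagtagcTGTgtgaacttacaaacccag
The capitals form an adjacent pair in Ccl3, Ccl4 and Ccl5 and a single codon in Xcl1. Over the whole coding sequence, Ccl3 and Ccl4 were the closest pair, with 68.4% identity, and the other pairs had 41.5% to 60.3%. The longest run of identical bases between transcripts of any 2 of the 4 genes was 13 bases, and no other coding gene held a run of 126 bases, the read length, in common with them. Ccl3 lies on chromosome 11 from 83647844 to 83649355 on the minus strand, Ccl4 on chromosome 11 from 83662584 to 83664683 on the plus strand, and Ccl5 on chromosome 11 from 83525778 to 83530518 on the minus strand. Xcl1 lies on chromosome 1 from 164931644 to 164935527 on the minus strand. Each of the 4 has 3 exons, and the counts are per gene. In GENCODE a gap of 13228 bases separates Ccl3 from Ccl4, but in RefSeq (GRCm38.p6) the span of Ccl4 overlaps that of Ccl3 by 755 bases on the other strand. The library kits do not mark strand and the annotation used for counting was not given in the sources used here, so reads from any such overlap could be assigned to either gene or dropped.

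Among the 9 libraries, total counts ran from 16664474 to 38981516, with CD8 control replicate 3 the deepest, and all 4 chemokine genes were among the 15738 genes that passed the filter on low counts. The targeted gene, Zbtb7b, stood at 45.0 ± 5.68 CPM in CD4 control (counts per 1e6 counts of a library, with TMM library sizes; mean ± SD, n = 3), at 0.807 ± 0.0953 in the ThpokAD libraries and at 20.8 ± 2.87 in CD8 control. All 6 T cell markers were detected in every group. Cd4 stood at a mean of 1354, 635 and 1.28 CPM in CD4 control, CD4 ThpokAD and CD8 control respectively, and Cd8b1 at 18.3, 56.4 and 2379 CPM in the same order.

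All 4 chemokine genes were higher in CD4 ThpokAD than in CD4 control cells, by 7.10-fold for Ccl5, 18.3-fold for Ccl3, 20.9-fold for Xcl1 and 24.0-fold for Ccl4. Ccl3, Ccl4 and Xcl1 were also higher in CD4 ThpokAD than in CD8 control cells. For Ccl5 these 2 groups overlapped and no difference was called, with a 95% interval of the ratio from 0.788 to 1.57. The plot of levels by library sets Ccl5 beside the other 3 genes.

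**Figure D1:**
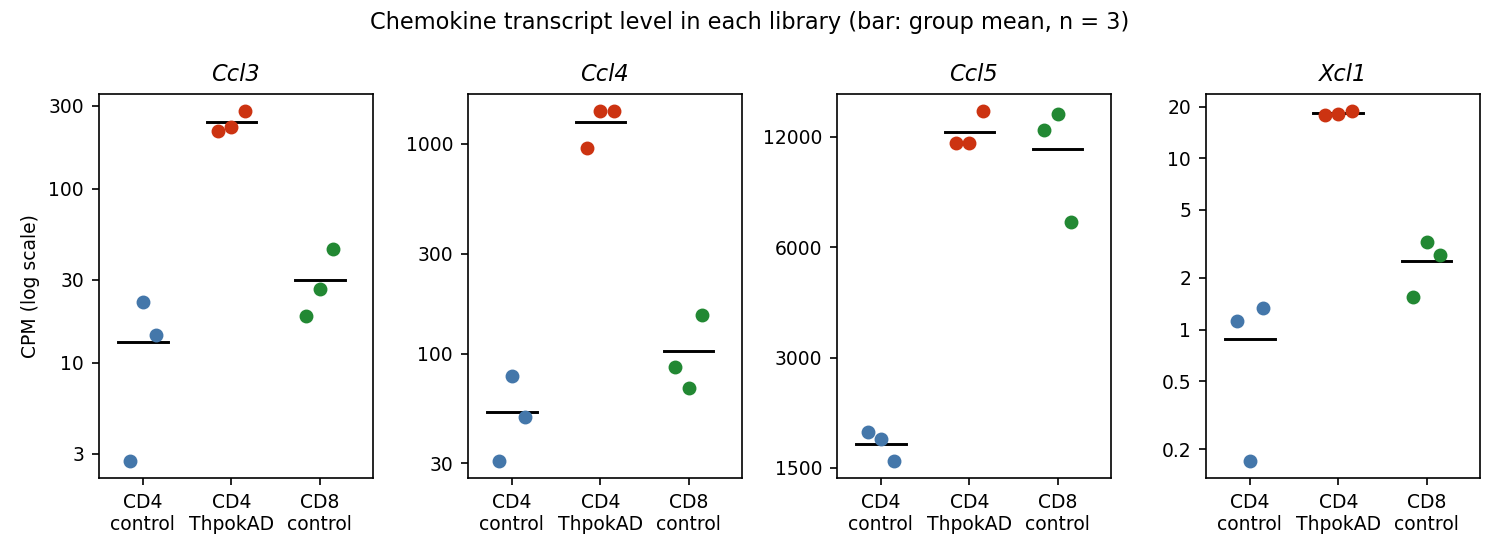
Level of each chemokine gene in each of the 9 libraries, in CPM on a log scale, with 1 panel per gene, 1 point per library and a bar at the mean of the 3 libraries of a group. The CD4 ThpokAD points lie above all CD4 control points for every gene, and overlap the CD8 control points for Ccl5 but not for Ccl3, Ccl4 or Xcl1.

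Ccl5 was the most abundant of the 4 in every group. Its level was 1875, 1794 and 1570 CPM in the CD4 control libraries (replicates 1, 2 and 3, the order used throughout), 11549, 11520 and 14115 CPM in CD4 ThpokAD, and 12504, 13866 and 7039 CPM in CD8 control. Both of the latter groups lay wholly above CD4 control, and CD8 control replicate 3 was the lowest library of its group. Group means were 1746 ± 158, 12394 ± 1490 and 11136 ± 3613 CPM (SD, n = 3). By edgeR's quasi-likelihood test with Benjamini-Hochberg adjustment, CD4 ThpokAD exceeded CD4 control by 2.83 on the log2 scale (SE 0.235, 95% interval 2.29 to 3.36, adjusted p = 0.000655). For CD8 control against CD4 control it was 2.67 (SE 0.234, adjusted p = 0.000144), a 6.38-fold difference. Between CD4 ThpokAD and CD8 control the log2 difference was 0.15 (SE 0.220, adjusted p = 0.77), with a 95% interval of -0.34 to 0.65, which covers ratios from 0.788 to 1.57. Without CD8 control replicate 3 this last difference was -0.092.

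Ccl4 stood at 30.9, 77.9 and 49.8 CPM in CD4 control, 957, 1433 and 1427 CPM in CD4 ThpokAD, and 86.4, 68.3 and 154 CPM in CD8 control. The CD4 ThpokAD libraries were far above the other two groups, whose ranges overlapped. Group means were 52.9 ± 23.6, 1272 ± 273 and 103 ± 45.0 CPM (SD, n = 3). The log2 fold change was 4.59 for CD4 ThpokAD against CD4 control (SE 0.435, 95% interval 3.60 to 5.57, adjusted p = 0.0011, edgeR) and 3.63 against CD8 control (SE 0.415, 95% interval 2.69 to 4.57, adjusted p = 0.00125), a 12.4-fold difference. For CD8 control against CD4 control, Ccl4 did not pass the test, with a log2 difference of 0.96 (95% interval 0.10 to 1.82, adjusted p = 0.148, edgeR).

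Ccl3, the neighbour and closest relative of Ccl4 among the 4, was lower in level with the same order of groups. Its libraries held 2.73, 22.2 and 14.3 CPM in CD4 control, 215, 226 and 280 CPM in CD4 ThpokAD, and 18.5, 26.5 and 44.8 CPM in CD8 control. CD4 control replicate 1 was the lowest of all 9, with 44 reads, and CD4 control and CD8 control overlapped. Means were 13.1 ± 9.81, 241 ± 34.5 and 29.9 ± 13.5 CPM (SD, n = 3). CD4 ThpokAD exceeded CD4 control by 4.20 on the log2 scale (SE 0.659, 95% interval 2.70 to 5.69, adjusted p = 0.0127, edgeR). Without CD4 control replicate 3 the adjusted p became 0.0591, and without CD4 control replicate 2 the log2 fold change was 4.81. Against CD8 control, CD4 ThpokAD was 8.02-fold higher (log2 3.00, SE 0.620, adjusted p = 0.0237, edgeR), a call that was lost (adjusted p 0.0597 to 0.0864) without any 1 of the CD4 ThpokAD libraries or without CD8 control replicate 1 or 2. CD8 control and CD4 control differed by 1.19 on the log2 scale (95% interval -0.16 to 2.54, adjusted p = 0.248), which did not pass.

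Xcl1 was the scarcest of the 4 and rested on few reads outside CD4 ThpokAD. It had 18, 3 and 23 reads in CD4 control, 361, 333 and 356 in CD4 ThpokAD, and 37, 67 and 111 in CD8 control. As levels these were 1.12, 0.171 and 1.34 CPM, then 18.0, 18.2 and 18.9 CPM, then 1.55, 3.25 and 2.74 CPM. No group overlapped another, and the CD4 ThpokAD libraries lay close together. Means were 0.877 ± 0.621, 18.4 ± 0.457 and 2.51 ± 0.872 CPM (SD, n = 3). CD4 ThpokAD exceeded CD4 control by 4.38 on the log2 scale (SE 0.699, 95% interval 2.80 to 5.96, adjusted p = 0.0135, edgeR), and the adjusted p was 0.0561 without CD4 control replicate 1. Against CD8 control it was 2.87 (SE 0.644, adjusted p = 0.0332), a 7.30-fold difference whose call did not hold once CD4 control replicate 1, or any 1 of the 6 libraries compared, was left out (adjusted p 0.0520 to 0.105). CD8 control exceeded CD4 control by 1.51 on the log2 scale without passing the test (95% interval 0.08 to 2.95, adjusted p = 0.169, edgeR).

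Of the 15738 genes tested, 1.81% were called higher and 0.928% lower in CD4 ThpokAD relative to CD4 control at an adjusted p under 0.05, and 4 of the 4 chemokine genes were higher. For CD8 control against CD4 control the shares were 5.13% higher and 6.55% lower, and 1 of the 4 (Ccl5) was called higher. For CD4 ThpokAD against CD8 control they were 4.63% and 1.91%, and 3 of the 4 were called higher. Without any 1 of the CD4 ThpokAD libraries, or without CD8 control replicate 1 or 2, only Ccl4 remained called in that last comparison. Groups that did not overlap, with the first higher, were seen for 4 of the 4 genes against 13.2% of all genes in the first comparison, 2 against 17.3% in the second and 3 against 14.6% in the third. The median log2 fold change of the 4 genes was 4.29, 1.35 and 2.94 in these comparisons, and that of all tested genes was 0.0035, 0.0101 and -0.0059. The 3 comparisons share libraries and are not independent of each other. The 4 genes were chosen with earlier results of these data known, so their counts and medians beside those of all genes are a description. The counts of genes called overall also moved: without any 1 of the 6 libraries compared, 181 to 274 genes were called between CD4 ThpokAD and CD4 control, in place of 431. Without CD4 ThpokAD replicate 1 or 2 or CD8 control replicate 2, 589 to 673 were called between CD4 ThpokAD and CD8 control, in place of 1030. Without 1 of the CD4 control libraries, 1058 to 1221 were called between CD8 control and CD4 control, in place of 1839.

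**Figure D2:**
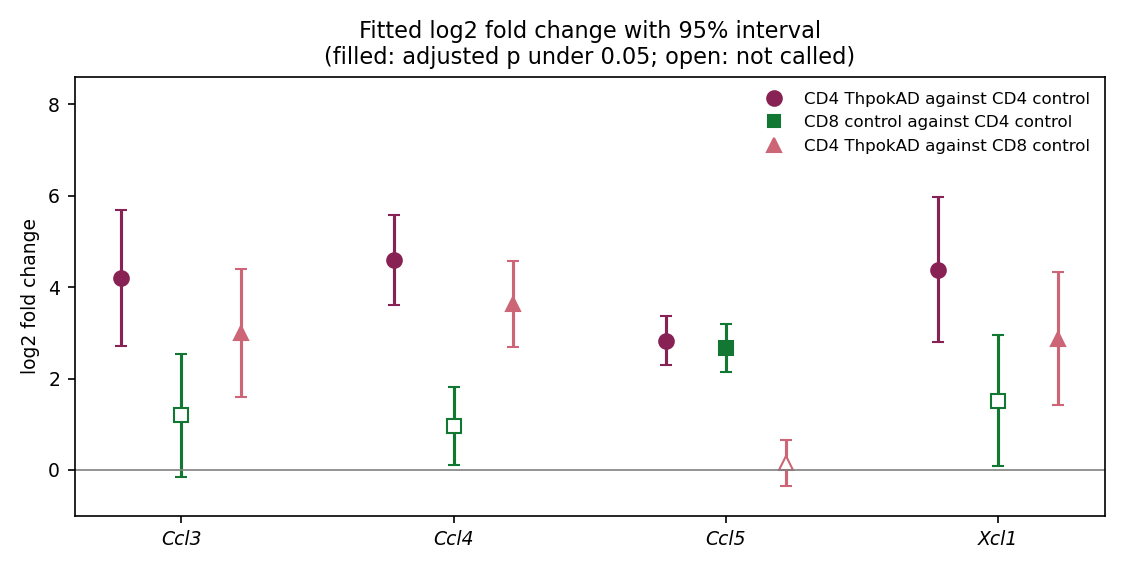
Log2 fold change of each chemokine gene in the 3 comparisons, with 95% intervals from edgeR's quasi-likelihood fit of all 9 libraries a line at 0, filled markers for called differences and open markers for the others. The interval for Ccl5 between CD4 ThpokAD and CD8 control spans 0 (-0.34 to 0.65), whereas those of Ccl3, Ccl4 and Xcl1 lie above it.

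Markers of other cells were read in the same libraries, and some of them differed between the groups. NK cells make all 4 chemokines, and the summed level of 7 NK cell markers was 46.8 to 58.1 CPM in CD4 control, 130 to 153 CPM in CD4 ThpokAD and 152 to 171 CPM in CD8 control. In CD4 control 3 of the 7 (Ncr1, Klra4 and Klra8) were at 0, and in CD4 ThpokAD Klra8 was at 0. Ncr1, a defining NK cell receptor, averaged 1.79 and 2.58 CPM in CD4 ThpokAD and CD8 control. Klrb1c, the most abundant of the 7 in CD4 ThpokAD and CD8 control, averaged 11.5, 69.1 and 122 CPM in CD4 control, CD4 ThpokAD and CD8 control. Tyrobp and Fcer1g averaged lowest in CD8 control, so the 7 did not move together. Of 6 NK cell markers tested, 3 (Klra4, Klra9 and Klrb1c) were called higher in CD4 ThpokAD than in CD4 control, and 1 (Fcer1g) higher than in CD8 control. In CD8 control against CD4 control, 3 of the 6 were called higher and 1 lower. The 8 myeloid markers summed to 167 to 280, 327 to 399 and 121 to 347 CPM in CD4 control, CD4 ThpokAD and CD8 control, none at 0 in a group. Of the 8, 2 (Cd68 and Itgam) were called higher in CD4 ThpokAD than in CD4 control and 3 (Cd14, Cd68 and Csf1r) higher than in CD8 control. Over all tested genes, 1.81% and 4.63% were called higher in these comparisons, in that order. S100a8 (21.5, 5.38 and 14.9 CPM) and S100a9 (16.6, 4.53 and 15.2 CPM) averaged lowest in CD4 ThpokAD, without being called lower there. Itgam averaged 1.87, 34.6 and 33.0 CPM in the same order of groups. Platelet markers, listed because platelets hold Ccl5, summed to between 0.543 and 9.54 CPM over all libraries. The part of such cells in the chemokine levels was not tested. In bulk libraries, more cells with a transcript and more transcript per cell cannot be told apart.

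Levels were compared between genes as CPM per kilobase of the coding transcript (766 bases for Ccl3, 660 for Ccl4, 532 for Ccl5 and 523 for Xcl1). On this scale the order was Ccl5, Ccl4, Ccl3, Xcl1 in each of the 3 groups. In CD4 ThpokAD the levels were 23298 ± 2801 CPM per kilobase for Ccl5, 1928 ± 414 for Ccl4, 314 ± 45.0 for Ccl3 and 35.1 ± 0.875 for Xcl1 (SD, n = 3). In CD4 control they were 3283, 80.1, 17.1 and 1.68, and in CD8 control 20933, 156, 39.1 and 4.80. Ranked by CPM per kilobase of all exons among 15215 tested genes with a matched length, Ccl5 was the 1st gene in both CD4 ThpokAD and CD8 control and number 13 in CD4 control. By this ranking Ccl4 was number 731 in CD4 control, number 14 in CD4 ThpokAD and number 326 in CD8 control, and Ccl3 was number 3454, 151 and 1552.

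Together the 4 genes made up 0.184%, 0.181% and 0.161% of all counts in CD4 control, 1.26%, 1.30% and 1.55% in CD4 ThpokAD, and 1.32%, 1.45% and 0.753% in CD8 control. The lowest CD8 control share again came from replicate 3. Of the counts of all chemokine ligand genes listed, they held 96.4 ± 1.10% in CD4 control, 99.4 ± 0.108% in CD4 ThpokAD and 99.5 ± 0.289% in CD8 control (SD, n = 3).

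The make-up of the chemokine RNA was compared as well as its amount. Ccl5 held 98.2%, 94.7% and 96.0% of the counts of the 4 genes in CD4 control, 90.7%, 87.3% and 89.1% in CD4 ThpokAD, and 99.2%, 99.3% and 97.2% in CD8 control. Every CD4 ThpokAD library lay below every library of the other groups. The mean share was 89.0 ± 1.69% in the ThpokAD libraries, 96.3 ± 1.76% in CD4 control and 98.6 ± 1.16% in CD8 control (SD, n = 3), so that ThpokAD differed from the other groups by -7.28 and -9.54 percentage points. Each of these 2 differences had an exact two-sided permutation p of 0.1, the smallest that 3 against 3 libraries allow, and an adjusted p of 0.3 over the 6 tests of composition, so neither can pass. CD8 control and CD4 control overlapped in this share (exact permutation p = 0.2, adjusted p = 0.3).

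The ratio of Ccl4 to Ccl3 counts, which needs no scaling between libraries, did not separate the groups. There were 11.3, 3.50 and 3.48 reads of Ccl4 per read of Ccl3 in CD4 control, 4.44, 6.33 and 5.10 in CD4 ThpokAD, and 4.66, 2.58 and 3.43 in CD8 control. The high value of CD4 control replicate 1 comes from the library with 44 Ccl3 reads. All 3 pairs of groups overlapped, and the exact two-sided permutation p was 1 for CD4 ThpokAD against CD4 control, 0.4 for CD8 control against CD4 control and 0.2 for CD4 ThpokAD against CD8 control (adjusted p 1, 0.48 and 0.3). Without CD4 ThpokAD replicate 2, CD4 control replicate 2 or CD4 control replicate 3, the log2 difference of the first pair turned from 0.02 to between -0.27 and -0.12.

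**Figure D3:**
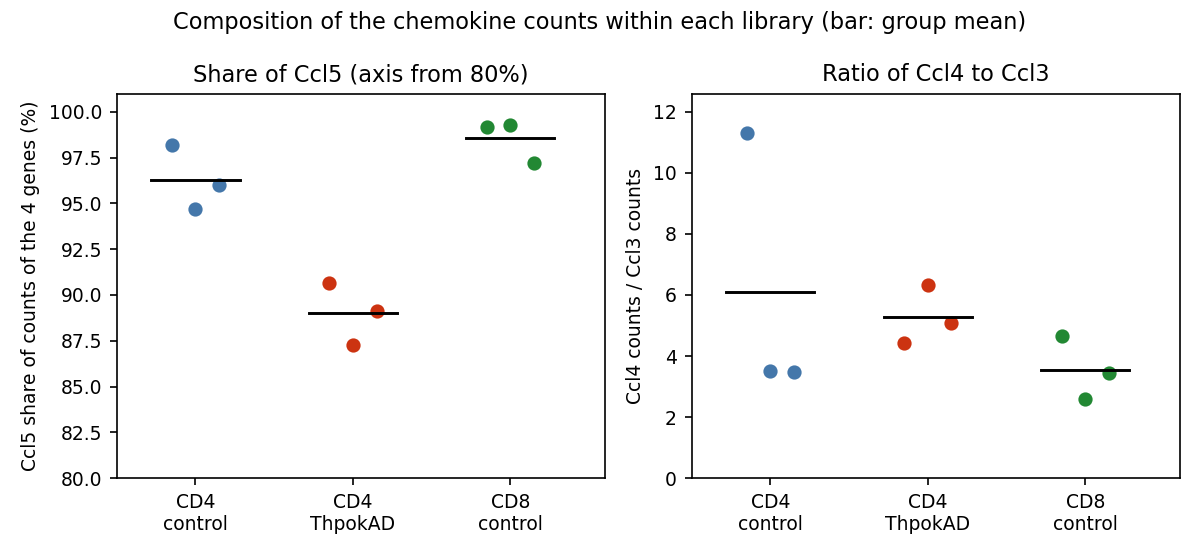
Share of Ccl5 in the summed counts of the 4 genes, in percent on an axis from 80% (left), and Ccl4 counts per Ccl3 count (right), with 1 point per library and a bar at the group mean. Ccl5 takes 87.3% to 90.7% in the CD4 ThpokAD libraries and 94.7% to 99.3% in the other 6.

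The libraries within a group did not order the 4 genes alike. In CD4 control, replicate 1 was lowest for Ccl3 and Ccl4 and highest for Ccl5, while replicate 2 was highest for Ccl3 and Ccl4 and lowest for Xcl1. In CD8 control, replicate 3 was highest for Ccl3 and Ccl4 and lowest for Ccl5. The highest CD4 control library exceeded the lowest by 8.13-fold for Ccl3, 7.82-fold for Xcl1, 2.52-fold for Ccl4 and 1.19-fold for Ccl5. In CD4 ThpokAD the same ratio was 1.05 to 1.50 for the 4 genes.

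Genes with the most similar pattern were found by the root mean square difference of log2 CPM, each gene centred on its own mean over the 9 libraries, among the 8317 genes that averaged 10 CPM or more. For both Ccl3 and Ccl4 the nearest gene was the other, at a difference of 0.578. Next for Ccl3 came Prc1 (0.873), which encodes a protein of the mitotic spindle midzone, then Med12l, Esm1 and Lamc1. For Ccl4 the next were Stmn1 (0.835), which encodes a microtubule-destabilizing protein, Prc1, the spindle gene Tpx2 and the cell cycle gene Cks1b. Prc1 averaged 6.67, 56.5 and 6.13 CPM in CD4 control, CD4 ThpokAD and CD8 control respectively. Ccl5 had its closest match in Cerk (0.239), ceramide kinase, at means of 10.3, 73.7 and 64.7 CPM in the 3 groups, followed by Chsy1, Borcs7, Kcnk6 and Klrc1, the last an NK cell inhibitory receptor also found on CD8 T cells. For Xcl1 they were Havcr2 (0.774), which encodes the inhibitory receptor Tim-3, Zfp367, Suox, Cenpe and Gzmb. Havcr2 averaged 5.82, 74.1 and 8.33 CPM, and Gzmb, the granule protease granzyme B, 45.2, 721 and 301 CPM. Ccl5 lay at 1.35 to 1.56 from the other 3 members, and Xcl1 at 1.25 from Ccl3 and 1.05 from Ccl4. Xcl1 averaged under 10 CPM over the 9 libraries, so it could not be named as a near gene of another member. The closest matches of a gene are nearer than other genes by the way they were picked. These are distances over 9 libraries that share the 3 groups, given as a description.

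Receptors of these ligands were read in the same libraries. Xcr1, the receptor of Xcl1, averaged 10.1 ± 0.928, 17.6 ± 6.24 and 13.2 ± 2.33 CPM in CD4 control, CD4 ThpokAD and CD8 control (SD, n = 3) and was not called in any comparison. Ccr3, a receptor of Ccl5, averaged 15.1 ± 5.10, 15.6 ± 8.09 and 4.93 ± 5.01 CPM and Ccr1 1.36 ± 2.35, 2.54 ± 0.706 and 2.17 ± 2.95 CPM in the same order, and neither was called. The scavenger receptors Ackr1 and Ackr2 did not pass the filter on low counts.

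The other chemokine ligand genes gave few reads. Of 37 further ligands in the table, 14 had no count in any library and 12 passed the filter on low counts. Between CD4 ThpokAD and CD4 control, edgeR called 0 of the 12, with 1 at an unadjusted p under 0.05, while DESeq2 and limma each called 1 higher. The median log2 fold change of the 12 there was -0.18. Over all tested genes it was 0.0035, with 1.81% called higher and 0.928% lower. Between CD8 control and CD4 control, edgeR called 1 higher and 2 lower, with 1 higher and 6 lower at an unadjusted p under 0.05 and by DESeq2, and 1 higher and 3 lower by limma. Between CD4 ThpokAD and CD8 control, edgeR called 1 higher and 0 lower, with 6 higher and 0 lower at an unadjusted p under 0.05, 5 higher and 0 lower by DESeq2, and 2 higher and 0 lower by limma. The medians in these last 2 comparisons were -3.96 and 2.50, with 3 of the 12 (Ccl1, Ccl2 and Cxcl9) at 0 in CD8 control. With these 3 set to a floor of 3 counts over that group, the medians were -3.83 and 2.50. Over all tested genes the medians were 0.0101 and -0.0059. The shares called higher and lower were 5.13% and 6.55%, then 4.63% and 1.91%. Ccl9, a CC chemokine of myeloid cells, averaged 2.82 ± 2.63, 19.1 ± 5.58 and 23.6 ± 11.0 CPM in CD4 control, CD4 ThpokAD and CD8 control respectively (SD, n = 3). It was the gene at an unadjusted p under 0.05 between CD4 ThpokAD and CD4 control. There it was 6.77-fold higher without being called (log2 2.76, adjusted p = 0.101, edgeR). Its call in CD8 control against CD4 control (log2 3.06, adjusted p = 0.0321, edgeR) missed the threshold (adjusted p 0.0512 to 0.116) without any 1 of CD4 control replicate 2, CD4 ThpokAD replicates 1 or 2 and CD8 control replicates 2 or 3. It was also lost in the fit of only the 6 libraries compared and with the replicate number as a block (adjusted p up to 0.0787). The log2 fold change of Ccl9 was 4.06 without CD4 control replicate 1. Ccl6, also a myeloid chemokine, averaged 7.03, 14.4 and 13.2 CPM and was not called. Cxcl10, an interferon-induced ligand of Cxcr3, had the reverse order, with 25.7 ± 11.6, 21.6 ± 4.34 and 1.31 ± 1.18 CPM in CD4 control, CD4 ThpokAD and CD8 control respectively. It fell by 4.30 on the log2 scale from CD4 control to CD8 control (adjusted p = 0.009, edgeR) and was 4.05 higher in CD4 ThpokAD than in CD8 control (adjusted p = 0.018), the second call being lost without CD4 ThpokAD replicate 2 or CD8 control replicate 3 (adjusted p 0.0558 and 0.0725). Without CD8 control replicate 2 these log2 differences of Cxcl10 were -5.09 and 4.83. Cxcl9, another Cxcr3 ligand, had 89, 53 and 0 reads summed over the 3 groups. It was called lower in CD8 control than in CD4 control (adjusted p = 0.045, edgeR), and this was lost (adjusted p 0.0597 to 0.114) in 8 of the 9 fits that left out 1 library, all but the one without CD4 ThpokAD replicate 2, and also with no filter on low counts and with the replicate block (adjusted p up to 0.102). Dendritic cell and MHC class II markers, which include markers of cells that make these Cxcr3 ligands, summed to 742 to 1395, 764 to 1609 and 220 to 338 CPM in the 3 groups. The class II genes were the most abundant, with Cd74 at 582, 781 and 164, H2-Ab1 at 244, 309 and 56.2 and H2-Aa at 148, 167 and 32.9 CPM. Flt3 (6.11, 2.83 and 2.51 CPM), Zbtb46 (12.4, 8.77 and 4.39 CPM) and Xcr1 (10.1, 17.6 and 13.2 CPM) were low. The part of such cells in the levels of these ligands was not tested.

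**Figure D4:**
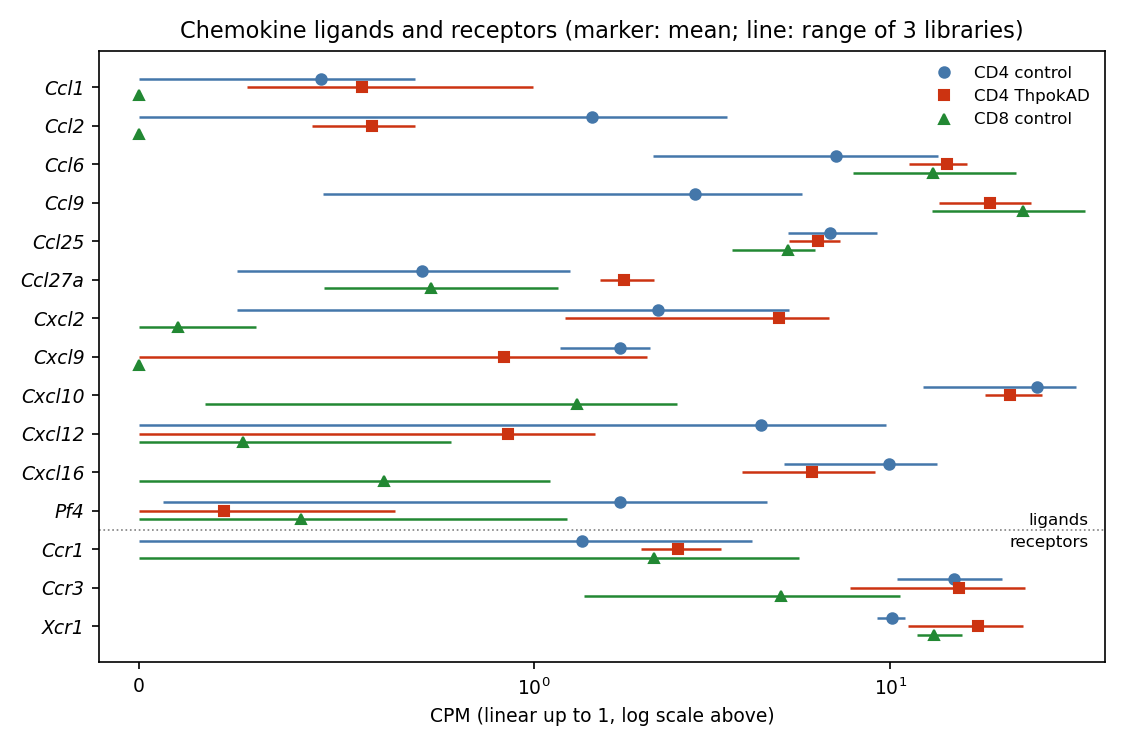
Level, in CPM on an axis that is linear up to 1 and logarithmic above, with a marker at the mean and a line over the range of 3 libraries, of the other tested chemokine ligands and of the receptors Ccr1, Ccr3 and Xcr1 in the 3 groups. Cxcl10 stands at 25.7, 21.6 and 1.31 CPM in the 3 groups.

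Among 15 genes that act behind chemokine receptors, edgeR called 1 higher in CD4 ThpokAD relative to CD4 control, Rgs1, which speeds the shut-off of G protein signals, and 0 lower. At an unadjusted p under 0.05 there were 6 higher and 2 lower, DESeq2 called 3 higher and 1 lower, and limma called 1 higher and 0 lower. Rgs1 averaged 295 ± 58.2, 560 ± 59.0 and 72.3 ± 6.80 CPM in CD4 control, CD4 ThpokAD and CD8 control respectively (SD, n = 3). Its rise in CD4 ThpokAD over CD4 control (log2 0.92, adjusted p = 0.0197, edgeR) missed the threshold without CD4 control replicate 2 or 3 or CD4 ThpokAD replicate 1 or 3 (adjusted p 0.0584 to 0.0904). In CD8 control against CD4 control 3 of the 15 were lower (Rgs1, Rgs2 and Rgs16, all regulators of this kind) and 1 was higher (Pik3r5, a subunit of the lipid kinase PI3Kγ). In CD4 ThpokAD against CD8 control 4 were higher (the same 3 Rgs genes and Gnb1, a G protein β subunit) and Pik3r5 was lower. Rgs16 averaged 49.4, 61.1 and 1.21 CPM and Rgs2 218, 250 and 27.0 CPM in CD4 control, CD4 ThpokAD and CD8 control. The call of Gnb1 was lost in 7 of the 9 fits that left out 1 library, held only without CD4 ThpokAD replicate 1 or CD8 control replicate 1, and that of Pik3r5 in CD4 ThpokAD against CD8 control was lost without CD4 ThpokAD replicate 2 or 3. The list's median log2 fold change was 0.20, -0.13 and 0.23 in the 3 comparisons, and that of all tested genes 0.0035, 0.0101 and -0.0059. Of all tested genes, 1.81% were called higher and 0.928% lower in the first comparison. These shares were 5.13% and 6.55% for CD8 control against CD4 control and 4.63% and 1.91% for CD4 ThpokAD against CD8 control.

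Ccl5 and related chemokines can be stored on serglycin and released by exocytosis, and 8 genes of that route were tested. Nkg7, a membrane protein of cytotoxic granules, was the 1 called higher in CD4 ThpokAD than in CD4 control, at 710 ± 70.9, 2492 ± 173 and 2775 ± 168 CPM in CD4 control, CD4 ThpokAD and CD8 control respectively (log2 1.81 and 1.97 against CD4 control). Srgn, which encodes serglycin, stood at 1265 ± 161, 991 ± 71.7 and 461 ± 45.5 CPM. Srgn, Rab27a and Stx11, the last 2 acting in granule docking and fusion, were lower in CD8 control than in CD4 control and higher in CD4 ThpokAD than in CD8 control. For Rab27a, the difference of CD4 ThpokAD from CD8 control missed the threshold whichever of the 9 libraries was left out (adjusted p 0.0583 to 0.139), and that of CD8 control from CD4 control did so (adjusted p 0.0508 to 0.0686) with 1 CD4 control library, or CD8 control replicate 1 or 2, left out. Counts were 1 higher and 0 lower of 8 in CD4 ThpokAD against CD4 control (2 lower at an unadjusted p under 0.05, 1 by DESeq2 and 0 by limma), 1 and 3 in CD8 control against CD4 control, and 3 and 0 in CD4 ThpokAD against CD8 control (0 lower also at an unadjusted p under 0.05 and by DESeq2 and limma). The medians were -0.04, -0.28 and 0.24, and those of all tested genes 0.0035, 0.0101 and -0.0059. The shares of all tested genes called higher and lower were 1.81% and 0.928%, 5.13% and 6.55%, and 4.63% and 1.91% in the same order.

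Chemokine mRNAs are often short-lived because proteins bind AU-rich elements in their 3′ UTRs. The pentamer ATTTA (searched on the transcript strand) occurs 5 times in the 409 bases of the Ccl3 3′ UTR, 1 time in the 141 bases of Xcl1 and 0 times in the 199 bases of Ccl5. One 30-base window from each of the Ccl3 and Xcl1 UTRs shows the element in capitals.
Ccl3: cacttgaaattttATTTAATTTAatcctat
Xcl1: ttataagtaataaatATTTAttattgatga
In the first bases, to the same length, of 3′ UTRs of transcripts at least that long, as many matches or more were found in 0.641% of 27147 for Ccl3 and 15.6% of 37989 for Xcl1, and at least 1 match in 22.6% of 34927 for the length of Ccl5. A match is a description of these letters. Of 8 RNA-binding proteins that act on such mRNAs, edgeR called 0 in CD4 ThpokAD against CD4 control, with 0 higher and 4 lower at an unadjusted p under 0.05, 2 lower by DESeq2 and 1 lower by limma. In CD8 control against CD4 control 3 were lower, Zfp36 (149 ± 50.8 against 316 ± 14.9 CPM), Zfp36l1 (23.1 ± 5.70 against 95.7 ± 12.7 CPM) and Zc3h12a (10.8 ± 2.78 against 150 ± 17.0 CPM). Zfp36 and Zfp36l1 encode destabilizing AU-element binders and Zc3h12a the ribonuclease Regnase-1. Zfp36 missed the threshold (adjusted p 0.0512 to 0.0548) in fits that left out CD4 control replicate 2, CD8 control replicate 1 or CD8 control replicate 2. In CD4 ThpokAD Zfp36l1 stood at 74.3 ± 9.21 CPM and Zc3h12a at 72.5 ± 16.9 CPM, both called higher than in CD8 control. Zfp36 stood at 187 ± 25.9 CPM there. The 4 that were lower than in CD4 control at an unadjusted p under 0.05 were Zc3h12a, Zfp36, Zc3h12d and Rc3h2. Their adjusted p was 0.0530, 0.122, 0.224 and 0.264 (edgeR). The medians of the 8 were -0.43, -0.49 and 0.34, and those of all tested genes 0.0035, 0.0101 and -0.0059. Over all tested genes, 0.928% were called lower in CD4 ThpokAD against CD4 control and 6.55% in CD8 control against CD4 control. In CD4 ThpokAD against CD8 control, 4.63% of all tested genes were called higher.

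Of 16 transcription factors tied to effector chemokine genes, CD4 ThpokAD had 4 higher and 1 lower relative to CD4 control, against 1.81% and 0.928% of all tested genes. The lower one was the targeted Zbtb7b. Eomes and Tbx21, T-box factors of cytotoxic cells, were both higher, Eomes at 7.60 ± 3.98, 94.0 ± 21.8 and 89.6 ± 11.6 CPM in CD4 control, CD4 ThpokAD and CD8 control respectively, and Tbx21 at 292 ± 47.1, 607 ± 79.6 and 559 ± 95.6 CPM (SD, n = 3). Tbx21 in CD4 ThpokAD missed the threshold when the fit left out CD4 control replicate 1 or 3 or CD4 ThpokAD replicate 3 (adjusted p 0.0574 to 0.0635). Prdm1, which encodes Blimp-1, and Bhlhe40 were the others that rose. Bhlhe40 averaged 1365 ± 64.9, 2420 ± 216 and 140 ± 17.0 CPM, and Prdm1 35.2 ± 8.87, 132 ± 12.5 and 47.7 ± 11.4 CPM. Both were also higher in CD4 ThpokAD than in CD8 control, as were Irf4 (131 against 3.72 CPM), Rel (232 against 46.4 CPM) and Nfatc1 (548 against 298 CPM), all factors downstream of antigen receptor signals. In CD4 control Irf4, Rel and Nfatc1 averaged 127, 349 and 668 CPM, and none of them was called between CD4 ThpokAD and CD4 control. Thus 5 of the 16 were higher and 1, Zbtb7b, lower in CD4 ThpokAD than in CD8 control, against 4.63% and 1.91% of all tested genes. Between CD8 control and CD4 control 2 were higher, Eomes and Tbx21, and 10 lower, against 5.13% and 6.55% of all tested genes. The 10 were Runx1, Klf13, Nfkb1, Rel, Rela, Irf4, Nfatc1, Nfatc2, Bhlhe40 and Zbtb7b. Of these, Klf13 lost its call in all 9 fits that left out 1 library, Nfatc2 without CD4 control replicate 1 or 2 or CD8 control replicate 1 or 2, Runx1 without CD4 control replicate 2 or 3 or CD8 control replicate 3, Nfkb1 without CD4 control replicate 1 or 2, and Zbtb7b without CD4 control replicate 2 or 3. Runx3, a cytotoxic lineage factor, averaged 197 ± 17.7, 315 ± 26.1 and 265 ± 73.2 CPM and was not called. The medians of the 16 were -0.17, -0.70 and 0.33, and those of all tested genes 0.0035, 0.0101 and -0.0059.

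Promoter sequence was at hand for 2 of the 4 members, Ccl3 and Xcl1. The 250 bases before each start site are printed 5′ to 3′ in the direction of the gene, from RefSeq (GRCm38.p6), with matches to the letters of factors in the list above in capitals.
Ccl3, chr11:83649379-83649628, minus strand: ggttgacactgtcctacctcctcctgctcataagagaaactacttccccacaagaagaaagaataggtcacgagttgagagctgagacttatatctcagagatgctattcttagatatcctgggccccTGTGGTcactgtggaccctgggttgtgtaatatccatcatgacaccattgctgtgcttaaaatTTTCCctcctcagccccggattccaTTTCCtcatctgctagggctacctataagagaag
Xcl1, chr1:164935523-164935772, minus strand: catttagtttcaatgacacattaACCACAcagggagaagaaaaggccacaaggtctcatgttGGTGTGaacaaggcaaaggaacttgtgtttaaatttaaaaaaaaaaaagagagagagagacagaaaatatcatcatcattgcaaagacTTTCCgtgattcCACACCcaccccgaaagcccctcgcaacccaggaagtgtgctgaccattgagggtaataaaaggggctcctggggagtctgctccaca
Ccl3 holds 1 Runx match (TGTGGT on either strand) and 2 NFAT matches (GGAAA on either strand). Xcl1 holds 2 T-box matches (GGTGTG on either strand), 1 Runx match and 1 NFAT match, and no match overlaps another. Both strands were searched, over these 250 bases and the next 50. Of 32851 promoters of the same length, 19.0% held a T-box match, 16.8% a Runx match and 61.3% an NFAT match. The letters TGANTCA (AP-1, in 7.81% of promoters), TGACGTCA (CRE, 1.79%) and TATAAA (the box bound by the TATA-binding protein, 13.6%) were in neither window, nor was the NF-kB motif (50.8%). A match is a run of letters and not a site of binding.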

How the data were processed

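RNA was measured in 9 libraries of sorted T cells, which the labels' protocols describe as low-input, paired-end libraries of 126 bp reads. Per the submitters' processing notes, the tools were STAR, HTSeq, DESeq2, Trimmomatic and bcl2fastq 2.17 and the build was mm10, with no role given for each. The deposited counts are whole reads for 48663 gene symbols, which the authors left unscaled. A second deposited table holds a signal, the same counts times 1 factor per library as made by the authors, with column sums of 904416 to 1033517, and was used in alternatives. Depth was 16664474 to 38981516 counts per library.

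Low-count genes were removed with filterByExpr (minimum count 10, minimum total 15), leaving 15738. All 9 libraries were fitted together, 1 coefficient per group, with edgeR 4.0.16 in R 4.3.3 (TMM, glmQLFit, glmQLFTest), with Benjamini-Hochberg adjustment over all tested genes and a threshold of 0.05. Standard errors are the log2 fold change over the square root of F. Composition was tested by exact permutation. Alternatives used DESeq2 1.42.0, limma 3.58.1 (log2 of value plus 1), other scaling, no filter, 6 libraries, bias-adjusted deviances, a replicate block and each library left out. On simulated data, changes were recovered only in part, with lower recovery in low-count genes. The pass mark of that test was first missed and was then restricted to genes of higher level, with the fit unchanged, so a gene that was not called may still differ.

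The members and gene lists were chosen with earlier results of these data known. Named are the 4 chemokine genes, called or well-expressed ligands and receptors (1 receptor and 1 sequence are not reported here), called genes of the other lists, Zbtb7b, and the 5 nearest genes per member; the cell type markers named were picked after their values were seen. A planned comparison of proteins was replaced by one of coding sequences, and this, the ATTTA search and the check for shared runs were added after the data were seen. Gene positions are from GENCODE M21 and are 1-based.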

Additional observations from a re-analysis of the deposited data

How the results depend on the processing

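Ccl4 in both comparisons with CD4 ThpokAD, and Ccl5 against CD4 control in both other groups, kept direction and call in all 16 alternatives. Leaving out 1 library gave 181 to 477 genes called in CD4 ThpokAD against CD4 control (431 with all), 589 to 788 in CD4 ThpokAD against CD8 control (1030) and 1058 to 1667 in CD8 control against CD4 control (1839), and 1 to 3 of the 4 chemokine genes called in CD4 ThpokAD against CD8 control (3). DESeq2 called 1456, 2385 and 3250 genes in that order, limma 755 in the first, bias-adjusted deviances 1638 in the second, and the replicate block 281 in the first and 684 in the second; the cause was not tested. Libraries with the same replicate number had correlations of -0.0454 to 0.0620 in their deviations from the group means. The labels do not say whether a number marks a shared animal or day, and these correlations cannot decide it. Among the 4 chemokine genes the block ended 1 call, that of Xcl1 in CD4 ThpokAD against CD8 control (log2 2.86, adjusted p = 0.0798, edgeR). Among the listed genes named, it also ended the calls of Ccl9, Cxcl9, Klf13 and Nfatc2 in CD8 control against CD4 control and of Gnb1 and Rab27a in CD4 ThpokAD against CD8 control. Ccl3 without a library had log2 fold changes of 3.72 to 4.81 against CD4 control and 2.74 to 3.42 against CD8 control. Xcl1 had 3.89 to 4.83 and 2.61 to 3.08, and limma, on log2 of the scaled value plus 1, which shrinks low genes, gave 3.41 against CD4 control. Ccl5 in CD4 ThpokAD against CD8 control ran from -0.092 to 0.33, negative without CD8 control replicate 3. The log2 ratio of Ccl4 to Ccl3 in CD4 ThpokAD against CD4 control ran from -0.27 to 0.58, at -0.12 without CD4 ThpokAD replicate 2, -0.26 without CD4 control replicate 2 and -0.27 without CD4 control replicate 3. Depth limits Xcl1 most, with 44 reads over the CD4 control libraries.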
